A study of Mus musculus with 9 samples.

Results

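The cytochrome P450 genes of families 1 to 4 were described in the livers of 9 male mice, 3 conceived naturally (NC), 3 by in vitro fertilization with fresh embryo transfer (IVF) and 3 by transfer of frozen and thawed embryos (FET). The genes were chosen by symbol: a protein-coding gene of the GENCODE vM21 annotation (mouse genome build GRCm38) was included when its symbol read Cyp, a digit from 1 to 4 and a letter. This gave 81 of the 55335 genes in the deposited table, and no expression value entered the choice. All 9 mice were chow-fed, 20 weeks old and fasted for 4 h before the liver was taken. The parents of the IVF and FET mice were B6D2F1/J, a cross of C57B6L/J and DBA2/J, so each of these mice carries its own mixture of alleles of the 2 strains. The paper lists B6D2F1/J and ICR mice and does not state which strain the NC parents were. The IVF and FET embryos had been transferred at the 2-cell stage into ICR recipients, and the FET embryos had been slow-frozen and thawed before that. The IVF and FET eggs came from superovulated females, while the NC mice came from natural pregnancies. Superovulation, culture, transfer and the recipient therefore differ together between NC and the other groups and cannot be told apart. The labels number the mice (NC 1, 5 and 6; IVF 2, 3 and 4; FET 2, 3 and 4), but do not give litters. The p-values below therefore measure only the spread between these livers.

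Cytochrome P450 enzymes are heme proteins that insert an oxygen atom into their substrates, using electrons passed on by the reductase Por and by cytochrome b5. Families 1 to 3 oxidise drugs, plant compounds, pollutants, steroids and polyunsaturated fatty acids, and family 4 hydroxylates fatty acids and eicosanoids at or near the omega end. In the liver these enzymes sit in the endoplasmic reticulum of hepatocytes, many of them in the pericentral zone of the lobule. Many are induced through nuclear receptors and the aryl hydrocarbon receptor, and several mouse genes are sex-biased because growth hormone is secreted in a different rhythm in males and females. Most of the mouse genes lie in tandem clusters of close copies, so the sequences of some neighbours are almost the same.

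Close copies matter for what a read can show. Alignment of the coding sequences gave 19 pairs of genes with an identity of at least 95%, which together hold 23 of the 81 genes. Identities were 98.49% for Cyp4a12a and Cyp4a12b, 98.45% for Cyp2a4 and Cyp2a5, 97.48% for Cyp3a25 and Cyp3a59, and 97.18% for Cyp4a10 and Cyp4a32. The 60 coding bases in which each of 3 such pairs differs most are printed here, because only reads over such positions can tell the copies apart. Capitals mark the bases that differ. The sequences are from the GENCODE vM21 transcripts, and positions count from the first base of the coding sequence: 200 to 259 for Cyp4a10 and Cyp4a32, 624 to 683 for Cyp4a12a and Cyp4a12b, and 596 to 655 for Cyp2a4 and Cyp2a5.
Cyp4a10: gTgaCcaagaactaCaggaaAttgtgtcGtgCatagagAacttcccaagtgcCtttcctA
Cyp4a32: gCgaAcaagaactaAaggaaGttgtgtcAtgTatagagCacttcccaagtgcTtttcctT
Cyp4a12a: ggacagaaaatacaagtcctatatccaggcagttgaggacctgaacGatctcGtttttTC
Cyp4a12b: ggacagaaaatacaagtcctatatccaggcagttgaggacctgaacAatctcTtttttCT
Cyp2a4: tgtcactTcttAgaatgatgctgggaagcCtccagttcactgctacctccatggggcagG
Cyp2a5: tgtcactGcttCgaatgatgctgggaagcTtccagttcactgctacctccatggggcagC
Cyp4a10 and Cyp4a32 differed at 43 of 1527 coding bases, 9 of them in this window. Cyp4a12a and Cyp4a12b differed at 23 of 1524 bases and Cyp2a4 and Cyp2a5 at 23 of 1482, with 4 in each window. How the reads of such copies were shared out is not given in the sources used here, so the split within a pair is uncertain throughout.

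Promoter sequences are printed for 5 genes whose values recur below. RefSeq windows (build GRCm38.p6) were present for 33 of the 42 genes that could be tested, and the 250 bases before the RefSeq start were read in each. The motifs were chosen with their matches known, and each was searched on both strands. The first was TTATGNAA, a form of the D-box bound by the circadian PAR bZIP factors such as Dbp. It was present in 3 of the 33 windows (9.09%), those of Cyp2a4, Cyp2a5 and Cyp4f14, and in 3.07% of all 32851 windows. The windows of Cyp2a5 (chr7:26835089-26835338, plus strand) and Cyp2a4 (chr7:26306942-26307191, plus strand) are shown with this match in capitals, read here as its reverse complement. They were 97.6% identical when aligned.
Cyp2a5: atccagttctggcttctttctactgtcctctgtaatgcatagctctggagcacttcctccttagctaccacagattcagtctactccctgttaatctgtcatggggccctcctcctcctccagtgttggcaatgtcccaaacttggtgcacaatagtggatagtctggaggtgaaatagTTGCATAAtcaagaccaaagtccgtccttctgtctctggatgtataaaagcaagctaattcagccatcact
Cyp2a4: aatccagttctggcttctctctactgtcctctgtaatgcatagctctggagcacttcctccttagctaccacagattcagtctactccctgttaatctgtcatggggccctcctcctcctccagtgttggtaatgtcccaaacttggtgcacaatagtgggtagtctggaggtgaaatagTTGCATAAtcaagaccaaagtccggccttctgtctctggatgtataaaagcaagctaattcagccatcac
The forkhead element TGTTTAC, of the type bound by the Foxa factors, was present in 4 of the 33 windows (12.1%), those of Cyp2c38, Cyp2c39, Cyp2j5 and Cyp3a11, and in 3.17% of all windows. It is in capitals in the windows of Cyp2j5 (chr4:96664120-96664369, minus strand) and Cyp2c38 (chr19:39463076-39463325, minus strand).
Cyp2j5: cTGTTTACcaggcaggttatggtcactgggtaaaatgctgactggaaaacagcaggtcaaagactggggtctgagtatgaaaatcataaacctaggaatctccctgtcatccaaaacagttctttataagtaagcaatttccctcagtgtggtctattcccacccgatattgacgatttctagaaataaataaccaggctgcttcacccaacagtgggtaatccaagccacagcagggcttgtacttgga
Cyp2c38: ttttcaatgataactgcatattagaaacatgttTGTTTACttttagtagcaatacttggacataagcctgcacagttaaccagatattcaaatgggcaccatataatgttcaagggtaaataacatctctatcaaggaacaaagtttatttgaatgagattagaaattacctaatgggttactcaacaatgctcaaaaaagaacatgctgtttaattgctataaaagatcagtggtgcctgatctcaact
The letters CAAAGTCCA, which resemble a site of the hepatocyte factor Hnf4a, were present in 5 of the 33 windows (15.2%), those of Cyp2c40, Cyp2c67, Cyp2c68, Cyp2c70 and Cyp3a11, and in 0.384% of all windows. They are in capitals in the window of Cyp3a11 (chr5:145879855-145880104, minus strand).
Cyp3a11: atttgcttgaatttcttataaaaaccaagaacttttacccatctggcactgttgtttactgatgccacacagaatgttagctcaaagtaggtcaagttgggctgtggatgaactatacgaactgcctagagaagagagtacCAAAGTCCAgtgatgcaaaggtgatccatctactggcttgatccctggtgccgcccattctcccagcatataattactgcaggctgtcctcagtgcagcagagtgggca
The hexamer AGGTCA, which nuclear receptors bind, was in 9 of the 33 windows (27.3%) and in 14% of all windows. TATAAA was in 17 of the 33 (51.5%) and in 12.4% of all. The core GCGTG, to which the aryl hydrocarbon receptor binds, was in 4 of the 33 (12.1%) and in 28.2% of all. Among the 33 a gene was counted once if any window of it matched, while all windows were counted singly, so the 2 percentages differ in unit. Cyp2c40, Cyp2c67 and Cyp2c68 are close copies (coding identities of 92.24% to 97.15%), as are Cyp2c38 and Cyp2c39 (94.22%), so their matches may not be separate cases. A match is a description of the letters, and binding was not measured.

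The livers were sequenced to different depths, and the libraries held different amounts of messenger RNA. From the steps between low FPKM values (fragments per kilobase of transcript, scaled to the mapped fragments of the library, so levels are per length), the mapped fragments were estimated at 6.6 to 26.4 M in NC, 3.89 to 16.8 M in IVF and 2.02 to 2.93 M in FET, and they may be too high by 2-fold in the deepest libraries. Nuclear protein-coding genes held 10.1% to 18.1% of the summed FPKM in NC, 4.4% to 29.3% in IVF and 4.4% to 13.7% in FET. Because that share sets every gene's FPKM up or down together, many values are given after rescaling, and the main comparisons on both scales. In rescaling, the FPKM of nuclear protein-coding genes was brought to the same sum in all 9 mice. Of 1293 genes whose mean FPKM was 10 or more, FET mice 2 and 4 had 35 and 33 listed at 0, against 0 to 5 in the other 7 mice. A P450 gene listed at 0 in a FET liver is therefore given as listed at 0, and where all 3 FET livers are at 0 a fitted difference depends on the pseudocount and is a description. NC mice 5 and 6 stood apart from the other 7: their sample numbers lie outside those of the others, which are 67 and 71 to 76, and what these numbers mark is not stated. In these 2 libraries 3 noncoding entries held 3.5% and 5% of the FPKM and mitochondrial genes 55.3% and 51.9%, against 18.1% to 61.9% and 27.6% to 41.5% in the others. Any result against NC rests on them, and values without each of them are given where they change a count. In bulk liver RNA, fewer hepatocytes and less RNA per hepatocyte cannot be told apart.

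P450 mRNA of families 1 to 4 was present in all 9 livers, and its summed level was lowest in the FET livers once the libraries were put on a common footing. In deposited FPKM, the 81 genes summed to 2166, 2799 and 3357 in NC mice 1, 5 and 6, to 751.3, 1815 and 4305 in IVF mice 2, 3 and 4, and to 1247, 1803 and 608.9 in FET mice 2, 3 and 4. The FET sums lay below the 3 NC sums and overlapped with the IVF sums. As a share of the FPKM of nuclear protein-coding genes, the P450 genes held 2.31%, 2.03% and 2.14% in the NC mice, 1.92%, 1.66% and 1.87% in the IVF mice, and 1.36%, 1.40% and 1.34% in the FET mice. The means were 2.16 ± 0.142% (SD, n = 3), 1.82 ± 0.137% (n = 3) and 1.37 ± 0.0267% (n = 3), so no liver of a group overlapped a liver of another. The FET mean was 63.3% of the NC mean and the IVF mean 84.1% of it. NC mouse 1, whose library was the least deep of the NC group, had the highest share of all. After median-ratio scaling, which takes the typical gene and not the sum as its reference, the 3 NC sums were 2311, 2088 and 2177, the IVF sums 2183, 1597 and 2197, and the FET sums 1130, 1487 and 1210. The FET livers again lay below the other 6, whereas IVF and NC overlapped. These sums are descriptions and carry no test. As a share of protein-coding FPKM, the 19 P450 genes of other families had a FET mean of 42.3% and an IVF mean of 51.7% of the NC mean. A lower sum was therefore not particular to families 1 to 4.

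**Figure D1:**
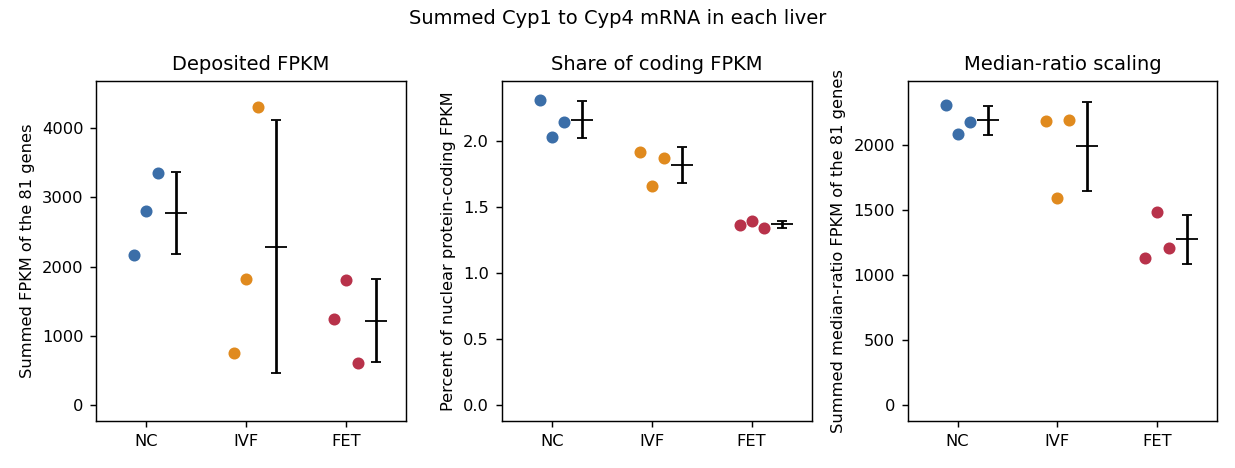
Summed level of the 81 P450 genes in each liver (points; n = 3 per group), with the group mean and SD at the right of each set, as deposited FPKM (left), as a percentage of the FPKM of nuclear protein-coding genes (middle) and as median-ratio scaled FPKM (right). The 3 FET livers lie between 1.34% and 1.40% in the middle panel, below the 6 others, while the deposited sums of IVF and FET overlap.

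Of the 81 genes, 68 had an FPKM above 0 in at least 1 liver, 32 had one in all 9, and 13 were listed at 0 throughout. A mean FPKM of at least 1 was reached by 42 genes, which were the ones tested. A mean of at least 10 was reached by 28 genes and a mean of at least 100 by 6. The number of genes above 0 was 50 to 64 in the NC livers, 49 to 53 in the IVF livers and 36 to 42 in the FET livers, and the FET libraries were the shallowest. The 5 most abundant genes of a liver held 44.4% to 58.6% of its P450 sum. The typical gene varied among the 3 mice of a group with a coefficient of variation of 37.4% in NC, 75.7% in IVF and 64.0% in FET in deposited FPKM (medians over the 42 genes, or in FET over the 38 that were above 0 in at least 1 FET liver), and of 36.4%, 38.5% and 47.2% after rescaling.

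**Figure D2:**
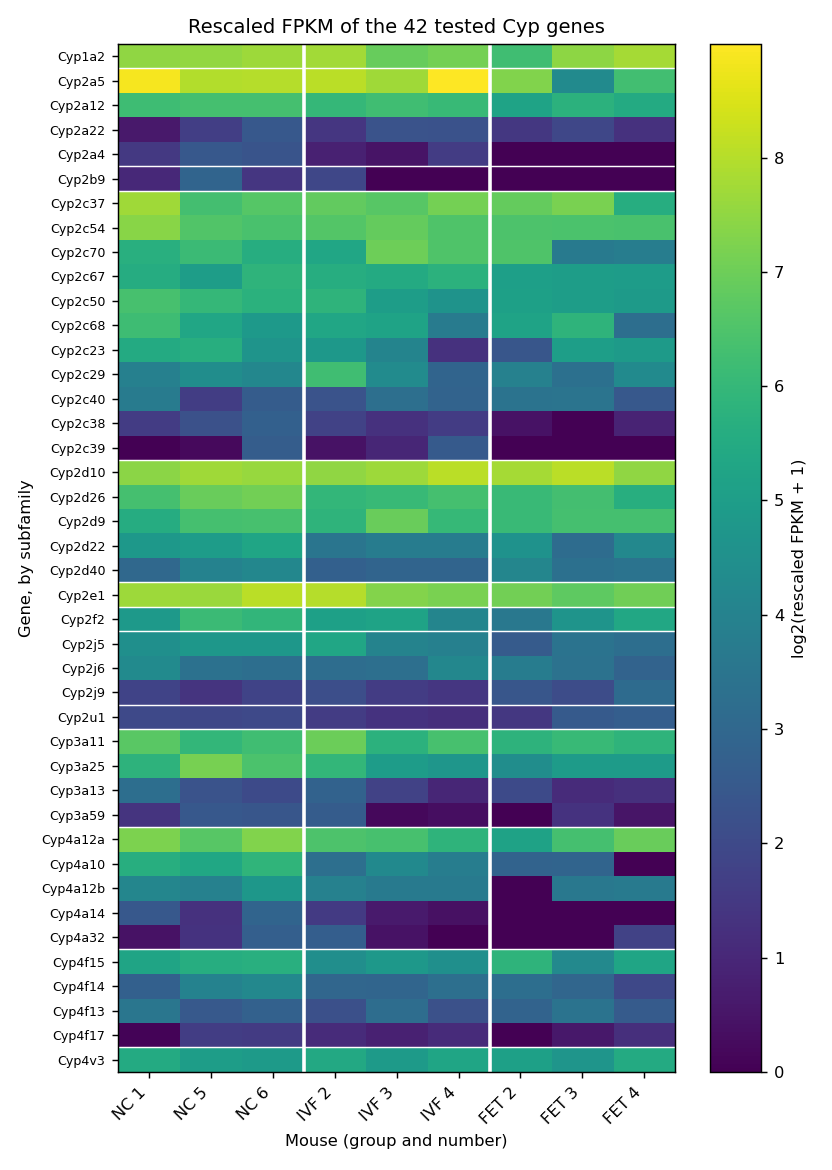
Rescaled FPKM of the 42 tested P450 genes (rows, ordered by subfamily and then by mean) in each of the 9 livers (columns), as log2(rescaled FPKM + 1) in colour. Cyp4a10 and Cyp4a14 are darker in all 3 FET columns than in all 3 NC columns, while Cyp2d10 is bright in every column.

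The leading genes were mostly of family 2, and their order differed between livers. Cyp2a5, the coumarin 7-hydroxylase, had the highest mean FPKM, with 403.3, 312.7 and 368.1 in the NC mice, 96.7, 207.2 and 1073 in the IVF mice, and 130, 22.25 and 31.7 in the FET mice. It was the most abundant P450 transcript in 5 of the 6 NC and IVF livers, the exception being NC mouse 6, and in none of the 3 FET livers. Cyp2d10 of the Cyp2d cluster led in FET mice 2 and 3, and Cyp1a2 led in FET mouse 4. Cyp2d10 had rescaled levels of 170.9, 210.6 and 194.6 in NC, 178.9, 204.4 and 268.8 in IVF, and 220.4, 264.3 and 182.3 in FET, so the 3 groups overlapped. Cyp1a2, which metabolises caffeine and activates aromatic amines, had rescaled levels of 178.7, 183.5 and 206.0 in NC, 213.4, 119.0 and 138.4 in IVF, and 74.9, 174.8 and 220.5 in FET. These also overlapped, and FET mouse 2 held the lowest value and FET mouse 4 the highest. Cyp2e1, which oxidises ethanol and paracetamol, had rescaled levels of 203.4, 201.0 and 266.8 in NC, 251.0, 158.5 and 143.4 in IVF, and 133.7, 108.9 and 129.9 in FET. For this gene every FET liver lay below every other liver after rescaling, while in deposited FPKM FET lay below NC and overlapped with IVF.

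The other abundant genes overlapped between groups in most cases. Cyp2c37 and Cyp2c54, which metabolise arachidonic acid, had rescaled levels of 47.7 to 207.7 and of 83.9 to 166.8 over the 9 livers. Cyp2c37 overlapped between all groups. Cyp2c54 had 85.1 to 166.8 in NC, 91.7 to 114.9 in IVF and 83.9 to 88.1 in FET, so that FET lay below IVF and overlapped with NC, while in deposited FPKM FET lay below NC and overlapped with IVF. Cyp2d26 had 79.5 to 133.5 in NC, 60.8 to 81.02 in IVF and 48.5 to 78.7 in FET, so its FET values lay narrowly below NC on this scale and overlapped with IVF, while in deposited and in median-ratio scaled FPKM FET overlapped with NC. Cyp2d9, the male-specific testosterone 16 alpha-hydroxylase, had 46.6 to 82.7 in NC, 56.5 to 122.4 in IVF and 67.5 to 81.1 in FET. Cyp3a11, the main inducible drug oxidase of the mouse liver, had 61.1 to 101.6 in NC, 53.6 to 124.8 in IVF and 55.5 to 66.2 in FET. Cyp2a12 had 72.8 to 80.9 in NC, 62.4 to 73.9 in IVF and 36.4 to 54.2 in FET, and its FET values lay below all others on this scale, while in deposited FPKM they overlapped with both groups. Cyp2c70, which makes the muricholic bile acids of the mouse, had 47.6 to 68.5 in NC, 39.1 to 126.8 in IVF, and 91.6, 11.98 and 13.1 in FET mice 2, 3 and 4. Its FET values thus lay on either side of the NC values.

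**Figure D3:**
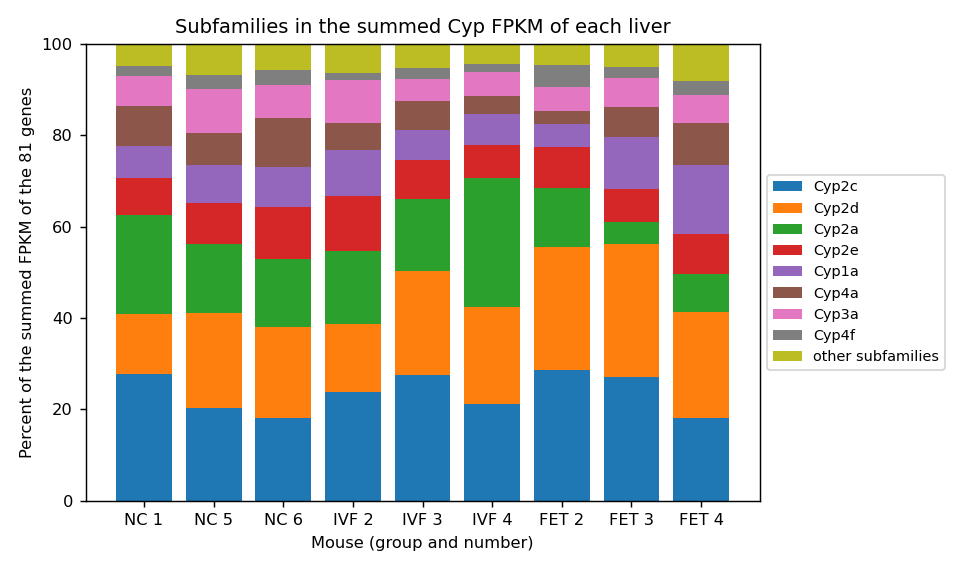
Percentage of the summed FPKM of the 81 P450 genes held by each subfamily in each liver, for the 8 subfamilies with the largest mean share and the rest together. The Cyp2a part is 4.97% to 13.0% in the FET livers and 14.8% to 28.4% in the other 6, and the Cyp2d part is 23.15% to 28.95% in the FET livers and 13.1% to 22.75% in the others.

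The 4 Cyp2a genes held 0.499%, 0.306% and 0.317% of the protein-coding FPKM in NC, 0.306%, 0.261% and 0.531% in IVF, and 0.177%, 0.0693% and 0.111% in FET. The FET mean was 31.9% of the NC mean. The 8 Cyp2d genes held 0.303% to 0.427% in NC, 0.286% to 0.397% in IVF and 0.311% to 0.404% in FET, and their FET mean was 93.9% of the NC mean. The Cyp2c genes of chromosome 19 held 0.390% to 0.643% in NC, 0.394% to 0.458% in IVF and 0.243% to 0.392% in FET, so that FET lay below IVF by a narrow margin and overlapped with NC. Cyp3a was 0.153% to 0.192% in NC, 0.0795% to 0.181% in IVF and 0.0726% to 0.0900% in FET. Cyp4a was 0.144% to 0.232% in NC, 0.0751% to 0.1095% in IVF and 0.0379% to 0.125% in FET, so that IVF and FET both lay below NC and overlapped with each other. By chromosome, the 15 genes of chromosome 7, which include Cyp2a, Cyp2b, Cyp2e and Cyp2f, held 0.561% to 0.712% in NC, 0.441% to 0.678% in IVF and 0.192% to 0.310% in FET.

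The comparison of FET with NC asked how far transfer of frozen embryos, together with in vitro fertilization, set the liver apart from natural conception. P450 genes were lower in FET with few exceptions, and Cyp4a10, Cyp4a14, Cyp2a5, Cyp4a12b and Cyp3a25 showed the largest differences among those whose groups did not overlap. None of the 42 genes passed an adjusted p of 0.05 (limma, Benjamini-Hochberg over 6755 genes), where 0.237% of all genes did. A p that misses the threshold does not show that levels were alike. With an unadjusted p under 0.05 there were 12 genes, all lower in FET (28.6% of the 42, against 10.1% of all genes tested). The groups did not overlap for 18 genes, all lower in FET, which is 42.9% of the 42 against 17.1% of all genes. The median log2 fold change of the 42 genes was -1.38, against -0.46 for all genes, and 41 of the 42 were negative, against 74.4% of all genes. Log2 fold changes are those of FPKM + 1, which understates the change of genes with low values. The filter bears on these counts: Cyp2b9, Cyp3a59, Cyp4a14 and Cyp4a32 reached a group mean of 1 FPKM in NC alone, so their lower values elsewhere are partly set by the filter and support nothing. Without these 4, and without the other genes of that kind among all genes, 8 of 38 P450 genes were lower with an unadjusted p under 0.05 (21.1%, against 9.16% of 6518 genes), 16 were lower without overlap (42.1%, against 16.4%), and the medians were -1.19 and -0.43. The count past the adjusted threshold depended on single mice: it was 4 without NC mouse 1 (Cyp2a4, Cyp2b9, Cyp2c38 and Cyp4a14, where 1.23% of all genes passed), 2 without FET mouse 2 (Cyp4a10 and Cyp4a14, against 0.844%) and 1 without NC mouse 5 (Cyp4a14, against 0.222%). Of these, Cyp2b9 and Cyp4a14 are among the 4 genes that passed the filter through NC alone, and Cyp2a4 was listed at 0 in all FET mice. Cyp2c38 had a FET mean of 0.216 FPKM, which rests on few fragments.

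After rescaling the median over all genes was -0.06 and that of the P450 genes -0.82, and 36 of the 42 were negative, against 53.4% of all genes. No P450 gene passed the adjusted threshold, 14 were lower and 1 higher with an unadjusted p under 0.05 (33.3% for the lower ones, against 9.55% of all genes, while 7.18% of all genes were higher), and 15 were lower without overlap of the groups (35.7%, against 11.5%). Without the 4 genes named above these counts were 11 of 38 (28.9%, against 8.71%) and 12 (31.6%, against 10.9%), and the medians were -0.73 for the P450 genes and -0.03 for all. The 1 gene that was higher was Cyp2j9, an arachidonic acid oxygenase, with rescaled levels of 2.495, 1.54 and 2.47 in NC and 4.30, 3.21 and 7.82 in FET. Its log2 difference was 0.89 ± 0.37 (SE) with an adjusted p of 0.273 (limma), and without rescaling its groups overlapped.

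**Figure D4:**
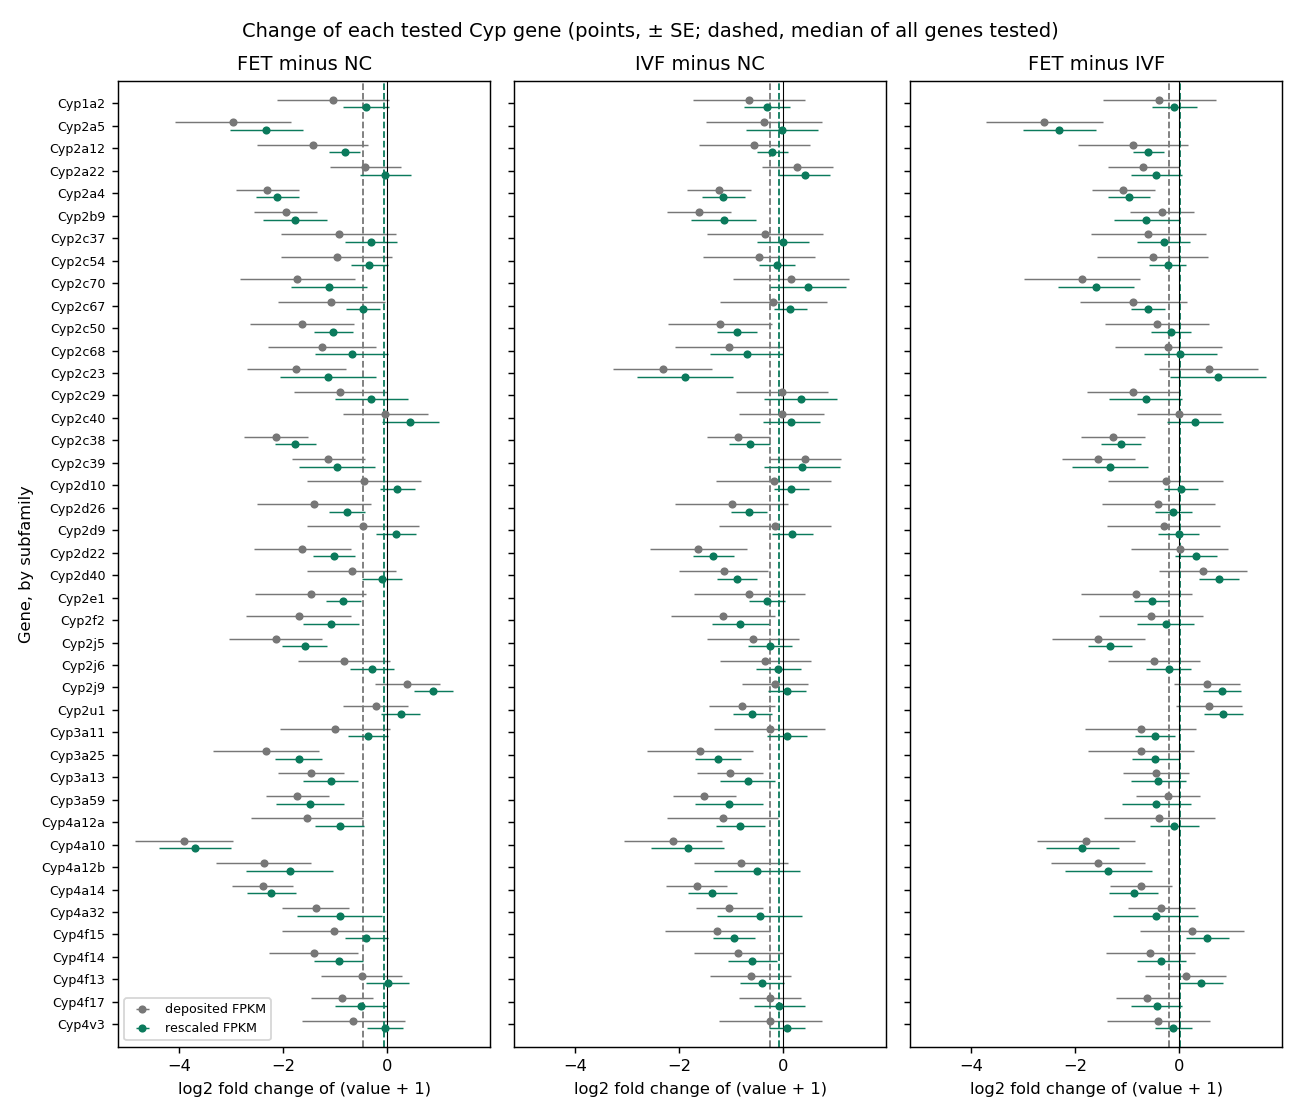
Log2 fold change of value + 1 for each of the 42 tested P450 genes, with its standard error, in the 3 comparisons, from deposited (grey) and rescaled (green) FPKM. Dashed lines mark the median over all 6755 genes, which is -0.46 and -0.06 for FET minus NC, and the points of that panel lie left of them for most genes.

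Cyp4a10 had the largest log2 difference of the 42 genes between FET and NC with a pseudocount of 1, and Cyp2a5 the next. With a pseudocount of 0.1 the values were -5.38 for Cyp4a14, -5.11 for Cyp4a10, -3.52 for Cyp4a12b and -2.99 for Cyp2a5, so the order depends on the pseudocount, and each of these genes but Cyp2a5 is listed at 0 in at least 1 FET liver. Cyp4a10, a fatty acid omega-hydroxylase induced through the receptor Ppara (chromosome 4, 115518264 to 115533649 in GRCm38), had an FPKM of 41.4, 50.2 and 82.7 in the NC mice, 3.12, 18.4 and 27.2 in the IVF mice, and 5.25, 7.72 and 0 in the FET mice. After rescaling the values were 48.3, 39.7 and 57.7 in NC, 8.69, 18.4 and 12.9 in IVF, and 6.28, 6.53 and 0 in FET, so the 3 groups did not overlap one another. Its log2 difference between FET and NC was -3.90 ± 0.94 (SE), and its adjusted p of 0.0505 (limma) lay just above the threshold. After rescaling the difference was -3.69 ± 0.70 with an adjusted p of 0.0702. Over 13 other settings, its adjusted p ranged from 0.0131 to 0.494 and was under 0.05 in 3.

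Cyp4a14, a nearby gene with the same type of activity (115486200 to 115496142), was expressed at a lower level. Its FPKM was 3.89, 1.81 and 9.37 in NC and 0.665, 0.585 and 0.713 in IVF, and it was listed at 0 in all 3 FET mice. At the depth estimated for the FET libraries, 3 fragments of this transcript would have given 0.410 to 0.595 FPKM, so the IVF levels lie close to what those libraries could show. With FET at 0 the fitted difference depends on the pseudocount, and the gene passed the filter through NC alone, so the values are a description. The log2 difference from NC was -2.39 ± 0.59 with an adjusted p of 0.0511 (limma), and that p ranged from 0.0443 to 0.452 over 12 other settings. After rescaling the difference was -2.22 ± 0.47 (adjusted p = 0.0918).

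Cyp4a12a and Cyp4a12b, which form 20-HETE from arachidonic acid and are higher in males, were both lower in FET without overlap in deposited FPKM, by log2 differences of -1.54 ± 1.07 and -2.37 ± 0.91 (adjusted p = 0.587 and 0.278, limma). Cyp4a12a had rescaled levels of 149.1, 99.6 and 156.3 in NC, 88.7, 82.9 and 56.8 in IVF, and 35.1, 79.7 and 122.6 in FET. The IVF values lay below all NC values, and FET overlapped with NC (-0.91 ± 0.47, adjusted p = 0.353, limma). Cyp4a12b had 16.6, 14.6 and 26.1 in NC, 14.6, 12.1 and 11.8 in IVF, and 0, 11.02 and 11.8 in FET. Its FET values lay below NC (-1.87 ± 0.83, adjusted p = 0.295, limma). FET mouse 2, where it was listed at 0, had Cyp4a12a at 29.35 FPKM. In deposited FPKM the log2 difference of Cyp4a12b depended on single mice. It was -1.31 without FET mouse 2 (adjusted p = 0.768, limma) and -3.21 without FET mouse 3 (adjusted p = 0.227, limma). Cyp4a32 had 0.347, 1.50 and 5.68 in NC, 5.39, 0.368 and 0 in IVF, and 0, 0 and 2.40 in FET, all rescaled, and its groups overlapped.

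**Figure D5:**
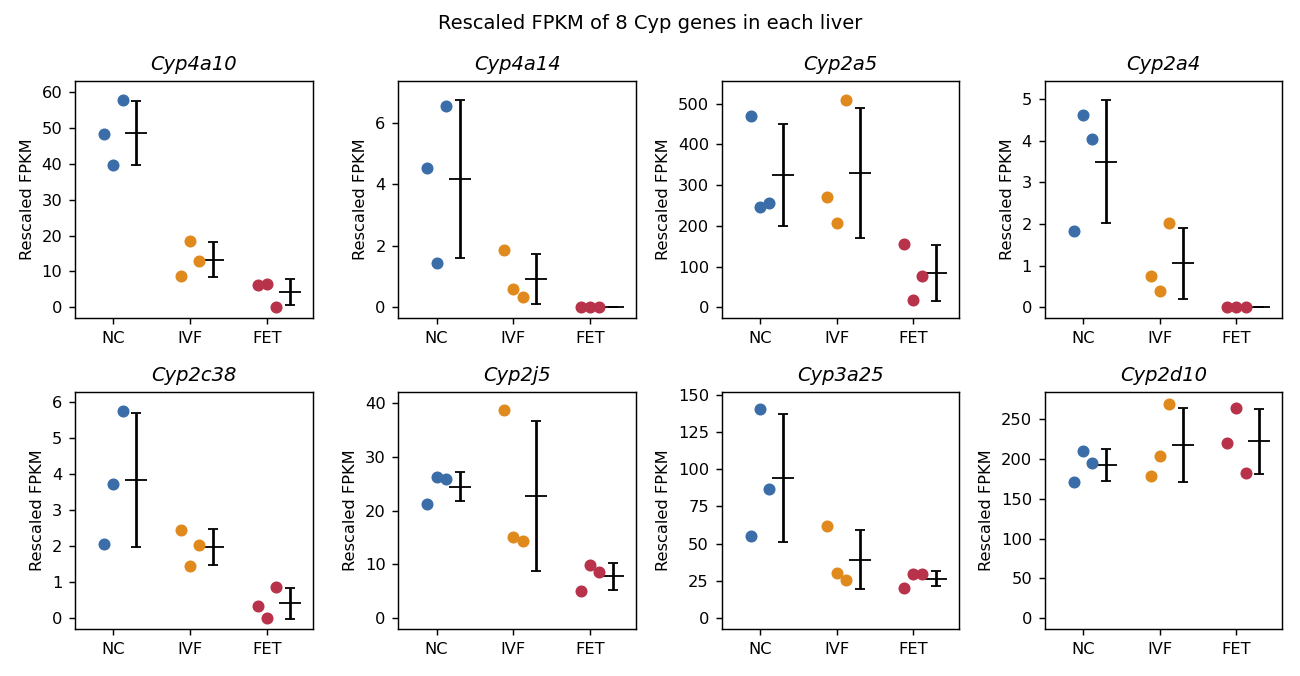
Rescaled FPKM of 8 P450 genes in each liver (points; n = 3 per group), with the group mean and SD at the right of each set. Cyp4a10, Cyp4a14, Cyp2a5, Cyp2a4, Cyp2c38 and Cyp2j5 have their 3 FET points below all other points, Cyp3a25 has them below NC only, and Cyp2d10 overlaps across groups.

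Cyp2a5 and its near copy Cyp2a4, whose promoter windows are printed above, had their 3 FET livers below NC, with Cyp2a4 listed at 0 there. Cyp2a5 (chromosome 7, 26835305 to 26843548) had rescaled levels of 469.9, 247.3 and 256.9 in NC, 269.8, 207.2 and 509.2 in IVF, and 155.5, 18.8 and 76.4 in FET. The FET livers lay below the other 6, while NC and IVF overlapped. The log2 difference from NC was -2.96 ± 1.12 in deposited FPKM (adjusted p = 0.274, limma) and -2.32 ± 0.70 after rescaling (adjusted p = 0.182). Cyp2a4, a steroid 15 alpha-hydroxylase that is higher in females (26307169 to 26315088), had an FPKM of 1.56, 5.83 and 5.79 in NC and 0.270, 0.384 and 4.25 in IVF, and was listed at 0 in all 3 FET mice. In the FET libraries 3 fragments would have given 0.589 to 0.8545 FPKM, so the lower levels of IVF mice 2 and 3 were not detectable as different from FET at this depth. Its log2 difference from NC was -2.30 ± 0.61 with an adjusted p of 0.0733 (limma), and -2.11 ± 0.41 with an adjusted p of 0.0707 after rescaling, values that depend on the pseudocount. Cyp2a22, the fourth Cyp2a gene, had 0.527 to 4.53 in NC and 1.41 to 2.80 in FET after rescaling, which overlapped.

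Cyp3a25 and Cyp2j5 were lower in FET at intermediate levels. Cyp3a25, a drug and steroid oxidase of chromosome 5 (145977194 to 146009618), had rescaled levels of 54.9, 140.2 and 87.0 in NC, 61.7, 30.6 and 25.3 in IVF, and 20.5, 29.5 and 29.6 in FET. The log2 difference between FET and NC was -2.32 ± 1.02 in deposited FPKM (adjusted p = 0.352, limma) and -1.70 ± 0.45 after rescaling (adjusted p = 0.146). Cyp2j5, an arachidonic acid epoxygenase of liver and kidney (chromosome 4, 96628773 to 96664154), had rescaled levels of 21.3, 26.2 and 25.9 in NC, 38.8, 15.1 and 14.3 in IVF, and 4.94, 9.84 and 8.51 in FET. Its difference from NC was -2.14 ± 0.89 (adjusted p = 0.334, limma), or -1.58 ± 0.43 after rescaling (adjusted p = 0.147).

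Genes that are known to be higher in females had low levels in these males. The list held 11 genes (Cyp2a4, Cyp2b9, Cyp2b13, Cyp2c38, Cyp2c39, Cyp2c40, Cyp2c69, Cyp3a16, Cyp3a41a, Cyp3a41b and Cyp3a44), of which 5 were tested. FET lay below NC without overlap in 3 of the 5 on both scales (Cyp2a4, Cyp2b9 and Cyp2c38), as in 17.1% of all genes, or 11.5% after rescaling. Cyp2b9 passed the filter through NC alone, and without it there were 2 of 4, against 16.4% of all genes without those of that kind, or 10.9% after rescaling. Cyp2a4 was listed at 0 in FET and Cyp2c38 was close to 0 there, so this count is a description. Cyp2c38, an arachidonic acid epoxygenase (chromosome 19, 39389556 to 39463075), had an FPKM of 1.76, 4.70 and 8.26 in NC, 0.876, 1.46 and 4.31 in IVF, and 0.284, 0 and 0.363 in FET. Its log2 difference from NC was -2.13 ± 0.61 (adjusted p = 0.101, limma), or -1.76 ± 0.39 after rescaling (adjusted p = 0.0992). The FET mean of Cyp2c38 was 0.216 FPKM, a level that rests on few fragments at the depth estimated for FET, so these differences depend on the pseudocount. Cyp2b9 had an FPKM of 0.886, 8.08 and 2.37 in NC and was listed at 0 in all FET mice and in IVF mice 3 and 4 (log2 difference between FET and NC -1.95 ± 0.61, adjusted p = 0.147, limma, or -1.77 ± 0.62 after rescaling, adjusted p = 0.226). These values depend on the pseudocount, and the gene passed the filter through NC alone. Cyp2c40 had rescaled levels of 2.07 to 12.4 in NC and 4.54 to 10.01 in FET, which overlapped. In all, 9 genes were listed at 0 in the 3 FET livers and above 0 in the 3 NC livers, namely Cyp2a4, Cyp4a14, Cyp2b9, Cyp2c55, Cyp4f18, Cyp4a31, Cyp2c69, Cyp1a1 and Cyp4f16. That is 9 of the 68 P450 genes above 0 in at least 1 liver, against 3.44% of all such genes. The first 3 had a mean FPKM of 1 or more, Cyp4a14 and Cyp2b9 through NC alone. The other 6 had a mean FPKM under 1, and the FET libraries were the shallowest. The part of depth in this count was not tested.

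The comparison of IVF with NC asked how far in vitro fertilization with fresh transfer differed from natural conception. The differences were smaller, and Cyp2c23, Cyp4a10, Cyp4a14, Cyp2c50 and Cyp4a12a were the genes with the largest ones among those whose groups did not overlap. None of the 42 P450 genes passed the adjusted threshold (limma), where 0.0592% of all genes did. With an unadjusted p under 0.05 there were 5, all lower in IVF (11.9%, against 2.86% of all genes), and 7 genes were lower without overlap (16.7%, against 5.46%). Of the 5, Cyp2b9, Cyp3a59 and Cyp4a14 had passed the filter through NC alone, and without genes of that kind 2 of 38 remained, Cyp2c23 and Cyp4a10 (5.26%, against 2.13%), with 6 lower without overlap (15.8%, against 4.66%). The median log2 fold change was -0.72 for the P450 genes and -0.25 for all genes. After rescaling the medians were -0.43 and -0.07, 8 genes were lower with an unadjusted p under 0.05 (19%, against 3.82%), and 6 were lower without overlap (14.3%, against 11.3% of all genes, so close to the background). Without genes that passed through NC alone these were 7 of 38 (18.4%, against 3.22%) and 6 (15.8%, against 10.5%).

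Cyp4a10 was again among the lowest. Its log2 difference between IVF and NC was -2.11 ± 0.94 (adjusted p = 1, limma), or -1.83 ± 0.70 after rescaling (adjusted p = 0.852). Cyp4a14 differed by -1.66 ± 0.59 (adjusted p = 0.587, limma), and after rescaling its groups overlapped. Cyp2c23, an arachidonic acid epoxygenase best known from the kidney, had an FPKM of 37.6, 62.3 and 34.4 in NC, 9.53, 15.5 and 3.06 in IVF, and 3.61, 37.3 and 12.1 in FET. Its difference between IVF and NC was -2.31 ± 0.95 (adjusted p = 0.881, limma), and after rescaling IVF mouse 2 (26.6) overlapped with NC mouse 6 (24.0). Cyp2c50 had an FPKM of 71.3, 79.3 and 74.7 in NC and 20.5, 31.0 and 50.3 in IVF, a difference of -1.21 ± 1.0 (adjusted p = 1, limma), or -0.88 ± 0.38 after rescaling (adjusted p = 0.890), where its groups overlapped. Cyp4a12a differed by -1.16 ± 1.07 (adjusted p = 1, limma), with its FPKM between 125.9 and 223.9 in NC and between 31.8 and 119.8 in IVF. After rescaling, 6 genes lay lower in every IVF liver than in every NC liver, namely Cyp4a10, Cyp4a12a, Cyp2d22, Cyp2d40, Cyp2u1 and Cyp4f15. Cyp2d22 had rescaled levels of 26.7, 30.2 and 38.5 in NC, 10.2, 12.8 and 12.6 in IVF, and 23.3, 8.04 and 17.6 in FET. In Cyp2d22 and Cyp4a10, but in no other of the 42 genes, all 3 NC livers lay above the other 6 after rescaling (4.76%, against 4.19% of all genes), and in deposited FPKM this held for 5 genes (11.9%, against 2.74%), or for 4 of 38 without Cyp4a14 and the other genes that passed through NC alone (10.5%, against 2.13%).

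The comparison of FET with IVF asked what slow freezing, thawing and a short culture after thawing added, since both groups shared fertilization in vitro and transfer to ICR recipients. Cyp2j5, Cyp2c39, Cyp2c38, Cyp2a4 and Cyp2c29 had the largest differences among genes whose groups did not overlap, all lower in FET. For Cyp2c39 and Cyp2a4 this rests on values listed at 0 in FET, and their lowest IVF levels lie under 3 fragments at the FET depth. For Cyp2c38 it rests on a FET mean of 0.216 FPKM, a level of few fragments. None of the 42 genes passed the adjusted threshold (limma), where 0.0888% of all genes did. In deposited FPKM, 3 genes had an unadjusted p under 0.05, all lower in FET (7.14%, against 2.95%), and 6 were lower without overlap (14.3%, against 2.56%). The median was -0.50 for the P450 genes and -0.20 for all genes. After rescaling the medians were -0.37 and 0.02, 5 genes were lower and 1 higher with an unadjusted p under 0.05 (11.9% for the lower ones, against 4.81%, while 4.62% of all genes were higher), and 12 were lower without overlap (28.6%, against 6.01%). The 6 and the 12 include Cyp4a14, which is at 0 in all FET mice. Without genes that passed through NC alone they were 5 of 38 (13.2%, against 2.47%) and 11 (28.9%, against 5.98%), and those with an unadjusted p under 0.05 that were lower were 3 (7.89%, against 3.05%) and 5 (13.2%, against 4.92%).

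Cyp2a5 had the largest log2 difference of the 42 genes between FET and IVF, with -2.59 ± 1.12 in deposited FPKM (adjusted p = 1, limma), where its groups overlapped, and -2.30 ± 0.70 after rescaling (adjusted p = 0.375), where they did not. Cyp2j5 differed by -1.55 ± 0.89 (adjusted p = 1, limma), or -1.33 ± 0.43 after rescaling (adjusted p = 0.406). Cyp2c39, which hydroxylates retinoic acid, had an FPKM of 0, 0.234 and 7.54 in NC and 0.132, 0.977 and 10.2 in IVF and was listed at 0 in all FET mice (-1.55 ± 0.70, adjusted p = 1, limma, or -1.33 ± 0.73 after rescaling, adjusted p = 0.592, both of which depend on the pseudocount). Its level in NC and IVF thus rested on 1 mouse in each group, and the 0.132 of IVF mouse 2 lies under the 0.564 to 0.817 FPKM that 3 fragments would have given in the FET libraries. Cyp2c38 differed by -1.27 ± 0.61 and Cyp2a4 by -1.07 ± 0.61 (adjusted p = 1 for each, limma). Over 13 other settings the differences ranged from -2.85 to -0.83 for Cyp2c38 and from -3.2 to -0.41 for Cyp2a4. The IVF level of Cyp2a4 rested largely on IVF mouse 4. Cyp2c29, a Car-inducible epoxygenase, had an FPKM of 26.9, 19.0 and 13.8 in IVF and 12.2, 10.5 and 7.81 in FET (-0.88 ± 0.89, adjusted p = 1, limma), and its groups overlapped after rescaling. Cyp2u1, a fatty acid hydroxylase found in many tissues, had rescaled levels of 3.00, 2.76 and 2.96 in NC, 2.03, 1.49 and 1.33 in IVF, and 1.74, 4.81 and 5.45 in FET, and was the gene with an unadjusted p under 0.05 that was higher in FET (0.85 ± 0.37, adjusted p = 0.528, limma).

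In 9 of the 42 genes all 3 FET livers lay below the other 6 after rescaling, which is 21.4% against 3.7% of all genes tested. They were Cyp2a4, Cyp2a5, Cyp2a12, Cyp2c38, Cyp2e1, Cyp2j5, Cyp4a10, Cyp4a12b and Cyp4a14. In deposited FPKM this held for 4 genes (9.52%, against 1.82%), namely Cyp2a4, Cyp2c38, Cyp2j5 and Cyp4a14. Cyp2a4 and Cyp4a14 were listed at 0 in all FET mice, and Cyp2c38 had a FET mean of 0.216 FPKM, which rests on few fragments. Without genes that passed the filter through NC alone, the counts were 8 of 38 after rescaling (21.1%, against 3.61%) and 3 in deposited FPKM (7.89%, against 1.7%). FET is compared with NC and with IVF through the same FET livers, so these counts are not independent of the ones above.

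Cyp2f2, the naphthalene-oxidising enzyme of periportal hepatocytes, had rescaled levels of 27.8, 68.8 and 60.2 in NC, 34.0, 36.1 and 16.1 in IVF, and 11.2, 24.2 and 41.0 in FET. Cyp4f15, which hydroxylates leukotrienes and other fatty acids, had 37.3, 47.5 and 50.0 in NC, 20.8, 26.6 and 21.3 in IVF, and 56.0, 17.9 and 37.6 in FET. Its IVF values lay below all NC values on this scale, but not in deposited FPKM, and its FET values on either side. Cyp4v3, a fatty acid hydroxylase, had 28.8 to 43.8 in NC, 29.2 to 42.1 in IVF and 24.6 to 44.3 in FET. These overlapped. The 26 genes with a mean FPKM above 0 and under 1 included Cyp1a1 and Cyp1b1, which are induced by aryl hydrocarbons, and Cyp2b10, which is induced by phenobarbital-like compounds. Cyp1a1 had a mean FPKM of 0.0912 over the 9 livers, Cyp1b1 of 0.00877 and Cyp2b10 of 0.117, far below Cyp1a2.

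By known role, of the 4 Cyp4a targets of Ppara, 3 were tested and none passed the adjusted threshold (limma). Cyp4a14 and Cyp4a32 passed the filter through NC alone, which leaves Cyp4a10, so no count or median is given. The log2 difference of Cyp4a32 between FET and NC was -1.37 ± 0.64 (adjusted p = 0.382, limma), or -0.91 ± 0.82 after rescaling (adjusted p = 0.602), and its groups overlapped on both scales. All 8 pericentral P450 genes were negative in FET minus NC (74.4% of all genes, or 53.4% after rescaling), with a median of -1.02, or -0.39 after rescaling. Of the 42 P450 genes, 41 were negative (36 after rescaling), with a median of -1.38, or -0.82 after rescaling. The pericentral genes thus differed less than the P450 genes as a whole. In 3 of the 8 (Cyp2a5, Cyp2c50 and Cyp2e1) FET lay below NC without overlap after rescaling, against 11.5% of all genes and 35.7% of the 42. In deposited FPKM the groups of these 3 did not overlap either, nor did those of Cyp2c54, against 17.1% of all genes and 42.9% of the 42. The 3 male-biased genes had a median of -1.54, or -0.91 after rescaling, and Cyp2d9 among them was positive after rescaling (0.17 ± 0.39). The 4 tested targets of Nr1i2 and Nr1i3, which encode the drug sensors Pxr and Car, had a median of -0.97, or -0.34 after rescaling. Cyp1a2 was the only tested target of the aryl hydrocarbon receptor, with -1.04 ± 1.08, or -0.41 ± 0.44 after rescaling. Medians of all genes for these settings were -0.46 and -0.06.

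The genes around the P450 enzymes were described from lists. Of the 19 P450 genes of other families, which act mainly on sterols, bile acids, retinoids and vitamin D, 8 were tested and none passed the adjusted threshold in any comparison (limma), while 3 (Cyp27a1, Cyp51 and Cyp8b1) were lower with an unadjusted p under 0.05 in FET minus NC on both scales, where 10.1% of all genes were in deposited FPKM. Their median in FET minus NC was -1.10, or -0.69 after rescaling. Cyp27a1, the sterol 27-hydroxylase, had rescaled levels of 53.9, 83.3 and 111.4 in NC, 28.2, 26.5 and 26.6 in IVF, and 36.5, 23.5 and 13.5 in FET. Its NC values lay above all others on this scale, and overlapped with IVF mouse 4 in deposited FPKM (log2 difference between FET and NC -1.76 on the rescaled scale, adjusted p = 0.114, limma). Cyp7b1, the oxysterol 7 alpha-hydroxylase, had 8.54 to 13.3 in NC, 9.42 to 14.8 in IVF and 10.7 to 14.0 in FET, and Cyp8b1, the sterol 12 alpha-hydroxylase, had 6.03 to 15.1, 2.22 to 9.53 and 1.41 to 3.75.

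The 6 electron donors were all tested and none passed (limma; 0 with an unadjusted p under 0.05 in deposited FPKM and 1, Cyb5a, lower after rescaling, where 9.55% of all genes were), with a median of -0.88 in FET minus NC, or -0.37 after rescaling. Their 3 most abundant members were Pgrmc1, a heme-binding partner of P450 enzymes, Cyb5a, which encodes cytochrome b5, and Cyb5r3, its reductase. Cyb5a had rescaled levels of 154.3, 116.2 and 123.6 in NC, 64.2, 79.8 and 86.3 in IVF, and 55.9, 76.3 and 92.7 in FET, so its NC values lay above the other 6 on this scale, though not above IVF mouse 4 in deposited FPKM (rescaled log2 difference between FET and NC -0.82, adjusted p = 0.262, limma). Pgrmc1 had 158.1 to 439.1 in NC, 149.1 to 412.2 in IVF and 216.6 to 342.0 in FET, and Cyb5r3 had 27.3 to 57.3, 30.4 to 66.2 and 38.1 to 48.3. Of 12 genes of heme synthesis and breakdown, 11 were tested and none passed (limma; 0 with an unadjusted p under 0.05 in deposited FPKM), with a median of -0.50, or 0.06 after rescaling. After rescaling 3 of the 11 were higher in FET with an unadjusted p under 0.05 (limma), where 7.18% of all genes were, namely Alad (log2 difference 1.17), Blvrb (0.73) and Hmox2 (1.31), with adjusted p of 0.294, 0.282 and 0.214. Alad, which makes porphobilinogen, had 43.2 to 100.5 in NC and 115.1 to 158.3 in FET after rescaling, Blvrb, a biliverdin reductase, had 18.9 to 25.2 and 30.9 to 47.9, and Alas1, the rate-limiting enzyme, had 3.35 to 20.7 and 3.35 to 8.84.

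Of 19 receptors and transcription factors, 16 were tested and none passed (limma), with a median of -0.60, or -0.15 after rescaling. Foxa2, a forkhead factor of hepatocytes, was lower with an unadjusted p under 0.05 (-1.60, or -1.45 after rescaling). Hnf4a had rescaled levels of 22.0 to 24.6 in NC, 18.8 to 27.0 in IVF and 18.6 to 24.4 in FET. Nr1i3 had 10.4 to 22.7, 15.2 to 31.1 and 16.3 to 56.2, and Nr1h4, the bile acid receptor, had 6 to 42.4, 30.4 to 37.3 and 35.2 to 55.8. Among the other targets of Nr1i2 and Nr1i3, 8 of 10 were tested, and Slco1a4, an organic anion carrier, passed the filter through NC alone. The other 7 had a median of -1.66, or -1.29 after rescaling. Of the 7, 3 were lower with an unadjusted p under 0.05, where 9.16% of all genes were when those that passed through NC alone were left out: the exporters Abcc2 (-1.87) and Abcc3 (-1.78) and the glutathione transferase Gsta1 (-1.66). Gsta1 was listed at 0 in all 3 FET mice and in NC mouse 1, so its groups overlapped and its value depends on the pseudocount and on NC mice 5 and 6. After rescaling these 3 and Aldh1a1 (-1.29) were lower at that level, against 8.71% of all genes. Gstm1, a glutathione transferase, and Aldh1a1, a retinal dehydrogenase, had rescaled ranges of 156.5 to 369.3 and of 23.3 to 67.02 in NC, and of 132.2 to 306.1 and of 11.7 to 23.4 in FET. Ces2a, a carboxylesterase, was higher without overlap after rescaling (25.6 to 30.2 in NC and 40.0 to 68.9 in FET), and overlapped in deposited FPKM. Of the other targets of Ahr, Nqo1 and Tiparp were tested and 1 of them, Nqo1, was lower with an unadjusted p under 0.05 on both scales (-1.35, or -1.29 after rescaling), where 10.1% and 9.55% of all genes were, and was listed at 0 in FET mice 2 and 4, with a median of -0.72, or -0.46 after rescaling. Of 14 other targets of Ppara, 10 were tested, with a median of -1.30, or -0.73 after rescaling. Fabp1, the liver fatty acid carrier, had 2343 to 3826 in NC, 1583 to 2311 in IVF and 1401 to 2205 in FET, and Acaa1b, a peroxisomal thiolase, had 67.8 to 271.7, 53.0 to 98.1 and 63.4 to 128.9. No gene of these lists passed the adjusted threshold in any comparison (limma).

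Markers of cell types were measured beside these results. The 5 matched hepatocyte markers summed to a rescaled level of 11950 to 14940 in NC, 9461 to 14580 in IVF and 10890 to 13010 in FET, and none was at 0. Their median log2 difference between FET and NC was -1.23, or -0.6 after rescaling. For the 38 P450 genes left without those that passed through NC alone it was -1.19, or -0.73, so hepatocyte markers had similar medians. The single markers did not share 1 direction: Alb, which encodes albumin, had 6954 to 8442 in NC and 3189 to 6975 in FET, Ttr, which encodes transthyretin, 928.3 to 2513 and 647.4 to 1171, and Apoa1, an apolipoprotein, 2537 to 3211 and 3107 to 6503. The 6 markers of pericentral hepatocytes other than P450 genes summed to 192.8 to 305.7 in NC, 152.6 to 233.6 in IVF and 111.9 to 119.6 in FET, so their rescaled FET sums lay below the other 6, as the P450 shares did, while in deposited FPKM FET lay below NC and overlapped with IVF (243.7 to 366.5 in NC, 54.68 to 492.4 in IVF and 46.46 to 138.2 in FET). Among them Oat had 115.5 to 219.1 in NC and 25.4 to 71.3 in FET, whereas Glul had 70.8 to 80.8 and 46.1 to 84.4. The 6 periportal markers summed to 202.9 to 431.8 in NC, 157.4 to 212.7 in IVF and 133.9 to 265.3 in FET. Leaving out genes that passed through NC alone, 5 periportal markers had a median log2 difference between FET and NC of -1.38, or -0.78 after rescaling. The 4 such pericentral markers had -1.06, or -0.8. The 6 Kupffer cell markers summed to 13.63 to 18.99 in NC, 10.65 to 18.46 in IVF and 19.03 to 92.17 in FET, the highest being FET mouse 2. FET thus lay above IVF and, by a narrow margin, above NC after rescaling, while in deposited FPKM the groups overlapped (11.7 to 27.2 in NC, 3.815 to 28.23 in IVF and 11.21 to 77.03 in FET). Clec4f, the most abundant marker of that list, had rescaled levels of 6.24, 12.8 and 12.9 in NC, and 40.5, 6.15 and 5.33 in FET mice 2, 3 and 4. Cd5l, a scavenger receptor protein of macrophages, had 4.38, 3.00 and 3.44 in NC and 44.0, 6.74 and 13.1 in FET, so all 3 FET livers lay above NC. Sums of the markers of sinusoidal endothelium, stellate cells, cholangiocytes and erythroid cells overlapped between FET and NC. The erythroid sum was 248.5 to 977.4 in NC, 175.9 to 233.3 in IVF and 417.0 to 671.7 in FET after rescaling, so that FET lay above IVF on this scale, while in deposited FPKM these groups overlapped (74.99 to 370.7 in IVF and 173.1 to 580.6 in FET). The exocrine pancreas sum was 1.59 to 3.20 in NC and 4.34 to 5.503 in FET after rescaling, and overlapped in deposited FPKM (2.281 to 3.794 and 1.833 to 5.135), with Amy2a5 at 0 in all livers. In FET mice 2 and 3 this sum was Cela1 alone, with rescaled levels of 5.503 and 4.341. In FET mouse 4 it was Cela1 at 3.338 and Pnlip at 1.075, and Cela1 reached 3.202 in NC mouse 1. Prss2 and Cpa1 were at 0 in all FET mice. The part of these cell types in the P450 differences was not tested.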

How the data were processed

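Liver RNA of 9 male mice was sequenced on an Illumina instrument, and the authors deposited FPKM values for 55335 genes. The submitters' processing notes name FastQC 0.11.5, STAR 2.5.3a, StringTie 1.3.1c and DESeq2 1.16.1, and the genome build and annotation are not given in the sources used here. Gene identifiers were matched to GENCODE vM21 (55154 of 55335), and no deposited column was left unmatched (0).

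The 6755 genes whose mean FPKM was 1 or more were fitted as log2(FPKM + 1) over the 3 groups with limma 3.58.1 in R 4.3.3, with Benjamini-Hochberg adjustment over all of them and a threshold of 0.05. The same fit was made after FPKM had been rescaled to an equal sum over nuclear protein-coding genes. The other settings were a pseudocount of 0.1, no filter, a minimum of 10, quantile normalization, each mouse left out, median-ratio scaling, the 2 compared groups alone, and the mouse number as a block. Leaving mice out after rescaling, and leaving out of the counts the genes that reached a mean of 1 in NC alone, were added after seeing the data. The fit was tested on simulated data.

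The 81 genes were set by symbol, as stated above. The genes named, the lists and the motifs were chosen with earlier results of these data known. Named were the 12 genes with the highest mean, the leading gene of each subfamily, the 5 largest differences without overlap in each comparison, and the 3 most abundant tested genes of each list, of which 1 is not reported here. Other genes named were chosen after their values were seen. Depth was estimated from the spacing of low FPKM values, with 43.2% to 55.7% of them on a step within 2% against 18% by chance. Floors are 3 fragments and cover counting error only. Identity was computed on coding sequences with Biopython 1.88 and tables were handled with pandas 2.3.3 in Python 3.11.15.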

Additional observations from a re-analysis of the deposited data

How the results depend on the processing

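In FET minus NC, 1 P450 gene, Cyp4a10, passed the adjusted threshold with a minimum mean FPKM of 10 (adjusted p = 0.0131, limma). Under quantile normalization 1 passed, again Cyp4a10 (adjusted p = 0.045, limma). The share of all genes passing is not given for these settings, so the counts are a description. With a mouse left out the number passing ranged from 0 to 4. After rescaling with a mouse left out it ranged from 0 to 2, the 2 being Cyp2a4 and Cyp2c38 without NC mouse 1. Cyp2a4 was listed at 0 in all FET mice, and Cyp2c38 was close to 0 there. No share of all genes is given for the rescaled counts, so they are a description. The median log2 fold change of the tested P450 genes ranged from -1.67 to -0.95 with a mouse left out and from -0.85 to -0.63 after rescaling with a mouse left out (-0.64 without NC mouse 6, -0.63 without FET mouse 2 and -0.69 without FET mouse 3). The cause was not tested. It was -1.19 (-0.64 in IVF minus NC and -0.53 in FET minus IVF), with 0 genes passing, over the 38 P450 genes left without those that reached a mean FPKM of 1 in NC alone, and it was negative in all settings run. In IVF minus NC and FET minus IVF, 0 P450 genes passed in every setting run, and the medians ranged from -1.12 to -0.26 and from -1.02 to -0.14 with a mouse left out. With the replicate block over the IVF and FET mice the number passing was 0 and the median -0.50. Deviations of same-numbered mice from their group means correlated across genes with r = -0.131, 0.022 and -0.255, and those of other-numbered mice with -0.143 to 0.292. With 3 mice per group this cannot decide whether the numbers mark a pairing. The 2.02 to 2.93 M fragments estimated in FET limit what can be said of genes with a mean FPKM near 1.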
